A study of Mus musculus with 27 samples.

Results

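The 566 genes described here are every row of the authors' deposited table of trans results, in which the RNA level of each gene in mouse testis was regressed on genotype at a deleted chromatin boundary. No row was left out, and the FDR values in the authors' deposited table correspond to 35970 genes tested, so that the 566 listed genes are 1.57% of them. The study removed a boundary between topologically associating domains (TADs) from the mouse genome with CRISPR-Cas9. RNA-seq was made from 3 testis samples labelled Wild-type, 3 labelled B396.BOS heterozygous KO and 3 labelled B396.BOS homozygous KO. All 9 samples were total RNA depleted of ribosomal RNA and made into libraries with a directional kit. Capture Hi-C, which counts DNA ends ligated together because they lay close in the nucleus, was made from 3 Wild-type and 3 homozygous testis samples. The age and strain of the mice and the number of founders or clones behind the line are not given in the sources used here. Nothing states that the 3 replicates of a genotype came from separate animals, so p-values measure the spread between these samples.

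TADs are stretches of a chromosome whose parts contact each other more often than they contact their neighbours, and the boundaries between them are commonly bound by CTCF and cohesin. "Trans" here names genes other than those the authors tested as neighbours of the deletion, whichever chromosome they lie on. The testis holds germ cells at every step from spermatogonia, which divide by mitosis, through spermatocytes, which undergo meiosis, to round and then elongating spermatids, which build the acrosome and flagellum and compact their chromatin. These germ cells lie among Sertoli cells, with Leydig, peritubular, blood vessel and immune cells between the tubules. Many messenger RNAs of spermatids are made early, stored as RNA-protein particles and translated later. In RNA from whole testis, fewer cells of a type and less RNA per cell cannot be told apart.

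The listed genes include 3 microRNA genes, and their mature sequences are shown because the short seed, bases 2 to 8, sets which messages a microRNA can pair with. The sequences are RefSeq's, on GRCm38.p6, with the seed in capitals.
miR-7669-5p: aGUACCACcauacacagcuuuug
miR-3101-5p: gGUACCAUugacuaaagcuag
miR-3101-3p: uAGCUUUGguggauggucuuu
miR-3072-5p: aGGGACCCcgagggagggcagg
miR-3072-3p: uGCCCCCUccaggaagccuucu
miR-7669-5p lies at chr3:90011188-90011210 on the minus strand. The arms of miR-3101 lie on the minus strand at chr7:27176058-27176078 (5p) and chr7:27176020-27176040 (3p). Those of miR-3072 lie on the plus strand at chr12:109747893-109747914 (5p) and chr12:109747928-109747949 (3p). No full seed was shared among these 5 sequences, but those of miR-7669-5p (GUACCAC) and miR-3101-5p (GUACCAU) differ only in their last base. The libraries were made with a kit for total RNA and not one for small RNA, per the labels, so the rows concern transcripts of the locus and cannot be assigned to a mature arm. In the authors' deposited table, Mir7669 had a slope of 7.33 and Mir3072 a slope of 1.63. Mir3101 had a slope of -0.685 there, so the 3 loci did not share a direction.

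Promoters are shown for 4 protein-coding genes with high slopes that belong to the testis or glycolysis lists described further on. Each is RefSeq's stretch of 300 bases around a start of the gene on GRCm38.p6, written in the direction of transcription. The Ldha gene begins at chr7:46842274, so the stretch shown for it surrounds a start inside the gene. Capitals mark a cyclic AMP response element (TGACGTCA), a CCAAT box (CCAAT) or a GC box (GGGCGG) on either strand, so that a CCAAT box on the other strand reads ATTGG and a GC box there reads CCGCCC. Overlapping matches were kept.
Ybx2: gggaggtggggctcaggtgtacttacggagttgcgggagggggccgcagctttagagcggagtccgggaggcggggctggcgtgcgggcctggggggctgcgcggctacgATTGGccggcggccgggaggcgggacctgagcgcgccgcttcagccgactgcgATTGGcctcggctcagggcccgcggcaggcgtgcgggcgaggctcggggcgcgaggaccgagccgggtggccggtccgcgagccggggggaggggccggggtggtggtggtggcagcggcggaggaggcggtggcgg
Ldha: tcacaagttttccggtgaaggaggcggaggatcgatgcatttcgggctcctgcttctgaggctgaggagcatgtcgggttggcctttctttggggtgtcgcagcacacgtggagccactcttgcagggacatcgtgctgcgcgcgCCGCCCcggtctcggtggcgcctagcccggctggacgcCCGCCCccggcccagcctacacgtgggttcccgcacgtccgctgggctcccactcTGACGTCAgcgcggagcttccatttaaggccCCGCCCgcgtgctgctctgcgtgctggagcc
Spag4: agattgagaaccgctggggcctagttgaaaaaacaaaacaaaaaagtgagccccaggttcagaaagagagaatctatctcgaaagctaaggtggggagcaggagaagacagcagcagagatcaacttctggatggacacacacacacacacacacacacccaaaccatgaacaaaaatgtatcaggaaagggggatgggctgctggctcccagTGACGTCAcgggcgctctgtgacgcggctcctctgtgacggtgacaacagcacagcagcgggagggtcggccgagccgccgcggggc
Rfx2: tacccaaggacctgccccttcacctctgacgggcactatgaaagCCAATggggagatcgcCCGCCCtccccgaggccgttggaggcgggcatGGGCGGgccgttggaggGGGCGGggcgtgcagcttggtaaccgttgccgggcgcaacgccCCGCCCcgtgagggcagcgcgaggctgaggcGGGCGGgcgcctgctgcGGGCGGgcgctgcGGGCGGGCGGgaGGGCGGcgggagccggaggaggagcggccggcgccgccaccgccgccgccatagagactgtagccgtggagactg
The stretches lie at chr11:69935649-69935948 on the plus strand (Ybx2), chr7:46845554-46845853 on the plus strand (Ldha), chr2:156064963-156065262 on the plus strand (Spag4) and chr17:56830959-56831258 on the minus strand (Rfx2). The Ybx2 stretch held 2 CCAAT boxes, both in the reverse orientation, and no cyclic AMP response element. The Ldha stretch held 1 cyclic AMP response element and 3 GC boxes, and the Spag4 stretch held 1 cyclic AMP response element. The Rfx2 stretch held 9 GC boxes and 1 CCAAT box. No motif of the 3 was present in all 4 stretches.

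Of the 566 genes, 538 (95.1%) had a positive slope and 28 a negative slope in the authors' deposited table. Genes listed with a positive slope were 1.5% of all genes tested, and genes listed with a negative slope were 0.0778%. The deposited table does not state how genotype was coded. If it was coded by the number of deleted copies, a positive slope means more RNA with more deleted copies, and the direction is reported below only as the sign of the slope. The unit of expression is not stated either, so slopes carry no unit, and their order across genes follows that unit and each gene's expression level as well as any relative change.

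None of the listed genes passed an FDR of 0.05 in the authors' deposited table, and all 566 had an unadjusted p under 0.05. The smallest FDR in the authors' deposited table was 0.0917, for Gm38460, a long non-coding RNA gene on chromosome 17. Its slope in the authors' deposited table was 1.08, with a standard error, obtained as slope over t, of 0.0787 and an unadjusted p of 2.55e-06. Second came an FDR of 0.564, and the highest FDR in the authors' deposited table was 0.634. The rest of the list is therefore a ranking by unadjusted p, in which no gene was separated from the 35970 tested after adjustment. An unadjusted p limit of 0.01 over that many tests corresponds to 359.7 genes where p-values are spread evenly. All genes were measured in the same 9 libraries, so their tests are not independent of each other. The difference between 566 and 359.7 is therefore not read as a number of genes that responded.

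The list ends at the p-value limit that the authors set. The last gene inside it in the authors' deposited table was Arhgef10l, with a p of 0.00998. Genes outside the limit are not in the trans table, and whether an unlisted gene had a higher p or was not tested cannot be told apart. Of the 6 genes in the authors' deposited table of cis results, Dmrtb1, which encodes a transcription factor of the DMRT family that acts in germ cells at the entry into meiosis, had the smallest p, 0.0229, with a slope of 81.6 and an FDR of 0.137. That slope is larger than all but 2 of the listed trans slopes, those of Ybx2 and Ldha, and its p lies above the limit used for the trans list.

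**Figure D1:**
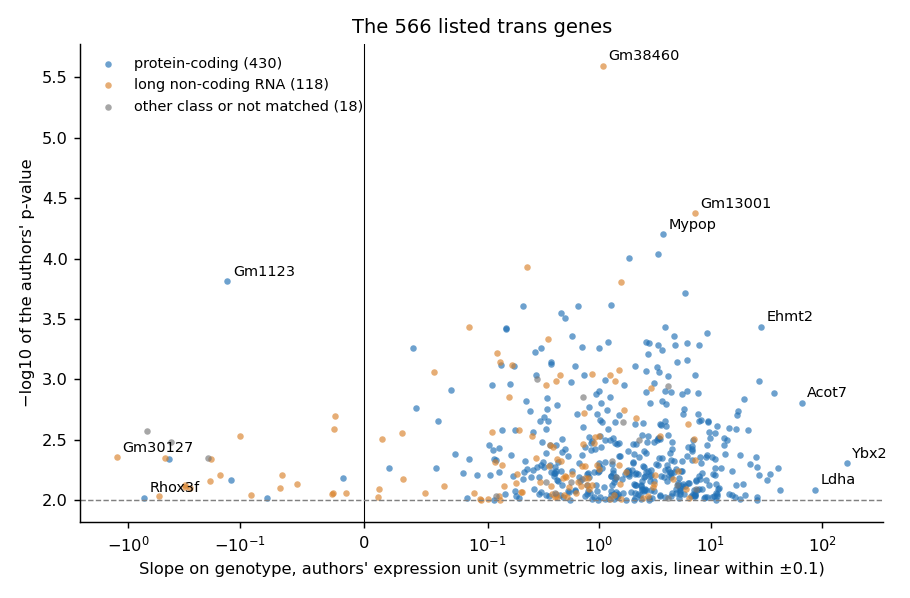
Slope on genotype (horizontal, symmetric log axis) against −log10 of the unadjusted p-value (vertical) in the authors' deposited table, 1 point per listed gene, coloured by RefSeq class, with the dashed line at p 0.01. The 538 positive slopes reach 167 (Ybx2), the 28 negative ones reach -1.27 (Gm30127), and Gm38460 stands highest.

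The positive slopes in the authors' deposited table ranged from 0.0112 for Gm34030 to 167 for Ybx2, with a median of 1.58 and quartiles of 0.470 and 4.73. The negative slopes in the authors' deposited table ranged from -1.27 to -0.0142, with a median of -0.140. At a slope of at least 1 in size, 328 genes were positive and 1, Gm30127, was negative. At 10 or more there were 52 positive genes and 0 negative ones, and at 30 or more there were 8 positive genes. The genotype term accounted for 63.6% to 96.4% of the variance of a listed gene over the 9 libraries (median 69.2%), as computed from the t values in the authors' deposited table. Those values are high by construction, since the list was limited to small p.

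The genes with the highest slopes span RNA storage, metabolism, protein turnover and chromatin. Ybx2, a germ cell Y-box protein that binds and stores messenger RNA, had a slope of 167 in the authors' deposited table (95% interval 69.2 to 265, p = 0.00493 from the table's regression). Ldha, the A subunit of lactate dehydrogenase, followed there with 86.3 (30.5 to 142). Acot7, an acyl-CoA thioesterase, had 65.5 in the authors' deposited table (34.6 to 96.5). All 3 intervals were wide beside their slopes, and those of Ldha and Acot7 overlapped that of Ybx2. Crat, the carnitine acetyltransferase that moves acetyl groups in and out of mitochondria, had 39.9 in the authors' deposited table. Pnpla2, the lipase that starts the breakdown of stored triglyceride, had 32.3 in the authors' deposited table. Ehmt2, a methyltransferase for lysine 9 of histone H3, had 28.3 in the authors' deposited table, and its p, 0.000365, was the smallest among the 12 highest slopes. Rnf19b, a ubiquitin ligase, had 36.9 in the authors' deposited table. The remaining 3 of the 12 outside the stage lists, Tcp10c, the growth factor gene Hdgf and Trafd1, had slopes of 26.3 to 27.4 in the authors' deposited table. Trafd1 overlaps the listed long non-coding RNA gene Gm42020 (slope 3.50 in the authors' deposited table) on the other strand, and whether the authors counted reads by strand is not stated, so that reads of these genes may be shared.

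The genes with the smallest p had lower slopes. After Gm38460 came Gm13001, a long non-coding RNA gene on chromosome 4, with a slope of 7.21 in the authors' deposited table and a p of 4.22e-05. Mypop, a MYB-related repressor of transcription, had 3.77 in the authors' deposited table with a p of 6.30e-05. Ppan, which acts in ribosome assembly, had 3.40 in the authors' deposited table with a p of 9.22e-05. No gene was among both the 12 smallest p-values and the 12 highest slopes. Of the 12 smallest p-values 11 belonged to positive slopes. The exception was Gm1123, with -0.130 in the authors' deposited table (95% interval -0.171 to -0.0879). With p limited to 0.001 the authors' deposited table held 61 genes, 60 of them positive, and with p limited to 0.005 it held 260, of which 249 were positive and 11 negative.

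The negative slopes were small and mostly belonged to non-coding genes. Gm30127, a long non-coding RNA gene on chromosome 13, had the lowest slope in the authors' deposited table, -1.27 (95% interval -2.00 to -0.543). Rhox3f, a homeobox gene of the X-linked Rhox cluster, had -0.728 in the authors' deposited table. Sag, which encodes the arrestin of photoreceptors, had -0.432 in the authors' deposited table. The other 9 of the 12 lowest slopes were Mir3101, 6 long non-coding RNA genes, and 2 symbols without a RefSeq match. The 6 protein-coding genes with negative slopes were Gm1123, Sag, Rbbp8nl, Rhox3f, Gm15080 and Slitrk2, and 3 of these lie on the X chromosome. Gm32257 on chromosome 19 and Gm41545 on chromosome 17 had the same t, -3.61, in the authors' deposited table, and 565 of the 566 t values were distinct.

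Gene classes were taken from RefSeq, to which 553 of the 566 symbols could be matched (525 by the current symbol, 11 by an older symbol and 17 by gene ID). Protein-coding genes made up 430 of the 553, or 77.8%, against 43.8% of all genes in RefSeq. Of these 430, 424 (98.6%) had a positive slope in the authors' deposited table. Long non-coding RNA genes numbered 118, of which 99 had a positive and 19 a negative slope in the authors' deposited table. Thus 19 of the 28 negative slopes were long non-coding RNA genes and 6 were protein-coding. Relative to RefSeq, 1.96 of every 100 protein-coding genes and 0.927 of every 100 long non-coding RNA genes were listed. The median slope in the authors' deposited table was 2.19 over listed protein-coding genes and 0.407 over listed long non-coding ones. Also listed were 2 transcribed pseudogenes, C4a and Gm6194, with slopes of 0.714 and 5.01 in the authors' deposited table. None of the genes that RefSeq classes as small nuclear RNA, small nucleolar RNA, transfer RNA or untranscribed pseudogene was listed. C4a has a near-identical active copy, so reads of the pair may have been split in the authors' counting. RefSeq is not the set of genes the authors tested, which is not given in the sources used here, so these shares describe the list beside an annotation and not beside the tested genes.

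**Figure D2:**
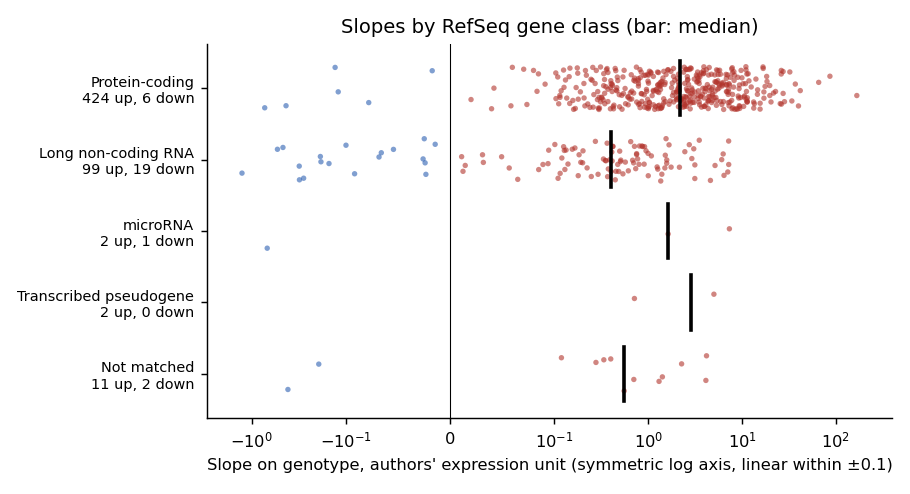
Slope of each listed gene in the authors' deposited table (horizontal, symmetric log axis) by RefSeq class, with red for positive and blue for negative slopes and a black bar at the class median. Protein-coding genes have 424 positive and 6 negative slopes and long non-coding RNA genes 99 and 19.

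Most of the listed genes of the stage lists came from the round spermatid list. Whether its genes are confined to that stage was not tested. Of the 30 genes on the round spermatid list 5 (16.7%) were listed in the authors' deposited table, all with positive slopes. The share over all tested genes, non-coding ones included, was 1.57%, and of every 100 RefSeq protein-coding genes 1.96 were listed. Besides Ybx2 these were Spag4, Rfx2, Catsper2 and Tbpl1. Spag4, a SUN-domain protein of the nuclear envelope and the sperm tail's attachment, had a slope of 41.7 in the authors' deposited table (95% interval 14.7 to 68.7). Rfx2, a transcription factor of spermatid ciliary genes, had 33.9 in the authors' deposited table (13.3 to 54.6). Catsper2, a subunit of the sperm calcium channel, had 18.4 there and Tbpl1, a relative of the TATA-binding protein needed in spermatids, had 10.6 in the authors' deposited table. The other 25 genes of the list, among them the acrosome gene Acrv1 and the regulator Crem, were not listed. The list was chosen with earlier results of these data known, so its share is a description.

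For the steps before and after, 0 or 1 gene of each list was listed, within 1 gene of what the 1.57% of all tested genes corresponds to. That share includes non-coding genes, and of every 100 RefSeq protein-coding genes 1.96 were listed. Nothing is read from these counts. Of 30 spermatocyte genes 1 (3.33%) was listed, the meiotic cyclin Ccna1, with 15.6 in the authors' deposited table. None of 20 spermatogonia genes and none of 37 elongating spermatid genes, protamines and transition proteins included, was listed, where a share of 1.57% corresponds to 0.315 and 0.582 genes. Among cells outside the germ line, 1 of 13 endothelial and blood genes was listed, Vwf, which encodes the von Willebrand factor of blood vessels and platelets, with a slope of 1.27 (p = 0.000240) in the authors' deposited table. None was listed of 20 Sertoli, 11 Leydig, 9 peritubular myoid, 11 macrophage or 11 epididymis genes. An unlisted marker is one whose p was over the limit or that was not tested, and its level in any library is not given by the table, so the labelled tissue could not be checked against marker levels. The part that a change in cell composition has in these slopes was not tested.

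The lists of metabolic, sperm and chromatin functions held between 0 and 4 listed genes each, and their shares stand beside the 1.57% of all tested genes as a description. That 1.57% includes non-coding genes, and of every 100 RefSeq protein-coding genes 1.96 were listed. Of 37 genes of glycolysis and lactate handling, Ldha and the muscle-type phosphofructokinase Pfkm were listed (5.41%), Pfkm with a slope of 10.9 in the authors' deposited table. Of 153 symbols of the flagellum and axoneme list 4 (2.61%) were listed, all positive in the authors' deposited table. Apart from Spag4 these were the dynein intermediate chain Dnaic2 (slope 6.31), 6430531B16Rik (5.52) and the intraflagellar transport gene Ift52 (5.03). Of 82 symbols for the acrosome and fertilization, Izumo4, a relative of the sperm-egg fusion protein, was listed with 17.1 in the authors' deposited table, beside Catsper2 (2.44% of the list). Of 32 genes of translational control and RNA storage only Ybx2 was listed (3.13%). None of 22 genes of spermatid chromatin compaction, 102 histone genes and 18 genes of CTCF and cohesin was listed, where a share of 1.57% corresponds to 0.346, 1.61 and 0.283 genes.

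The larger gene families were listed at shares on either side of the 1.57% of all tested genes, and Rhox3f was the 1 listed member among them with a negative slope. The family sizes count protein-coding symbols, while the 1.57% includes non-coding genes. Of every 100 RefSeq protein-coding genes 1.96 were listed, and the zinc finger and ribosomal shares lie under that. The ubiquitin and proteasome symbols had 15 of 529 listed (2.84%), with a median slope of 4.11 in the authors' deposited table. The 4 with the smallest p were the ligase gene Rnf182 (slope 0.373), the ligase adaptor Klhl17 (2.10), the ligase Rnf220 (4.11) and the ubiquitin-binding Ubap1 (2.61) in the authors' deposited table. The kinase and phosphatase symbols had 13 of 282 listed (4.61%). Among them were the kinase Nek3 (slope 0.455) and the phosphatase-prefix symbols Ppp1r16a (7.76), Ppp3cc (7.76) and Ppp1r12c (8.18) in the authors' deposited table. Not every one of the 13 is itself a kinase or phosphatase, and Cdk5rap3, for example, only carries a kinase's symbol prefix. Zinc finger symbols had 9 of 512 listed (1.76%), with slopes from 0.227 (Zfp101) to 11.3 (Zkscan17) in the authors' deposited table. The ribosomal protein prefixes caught 3 of 179 (1.68%), but 2 of these, Rps6kb2 and Rps6ka4, are kinases. The remaining 1, Rps24, a protein of the small ribosomal subunit, had 16.8 in the authors' deposited table. Ndufa10, of respiratory complex I, was the only 1 of 109 mitochondrial respiration symbols (0.917%), with 4.47 in the authors' deposited table. Of 33 Rhox symbols 2 (6.06%) were listed, Rhox3f (slope -0.728) and Rhox4d (0.0834), with opposite signs in the authors' deposited table. Of 1480 olfactory and vomeronasal receptor symbols 1 (0.0676%) was listed, Vmn1r53, with 0.178 in the authors' deposited table. None of the 11 protein-coding symbols with the DMRT prefix was in the trans list. Dmrtb1 carries that prefix but was tested by the authors among the cis genes, so it could not be in the trans list. The prefix caught only Dmrta2os, which is a long non-coding RNA gene and not a DMRT factor.

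Listed genes lay on every autosome and on the X chromosome, and none was on the Y chromosome or in the mitochondrial genome. Chromosome 7 had the highest number, 58, of which 57 had positive slopes in the authors' deposited table. Per 100 RefSeq genes, chromosome 17 had 1.69, chromosome 8 had 1.64 and chromosome 19 had 1.60. All 39 listed genes of chromosome 8 had positive slopes. Among chromosomes with a listed gene the X chromosome had the lowest rate, 0.358 per 100, or 0.324 of the rate over all chromosomes, with 9 genes listed, 6 positive and 3 negative. Chromosome 18 was next with 0.377 per 100, from 5 genes. Chromosome 4, which carries the deletion, had 40 listed genes, 39 of them positive, or 1.37 per 100, which is 1.24 times the rate over all chromosomes. Over protein-coding genes alone, chromosome 8 led with 2.97 per 100, chromosome 4 had 2.64 and the X chromosome 0.828.

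**Figure D3:**
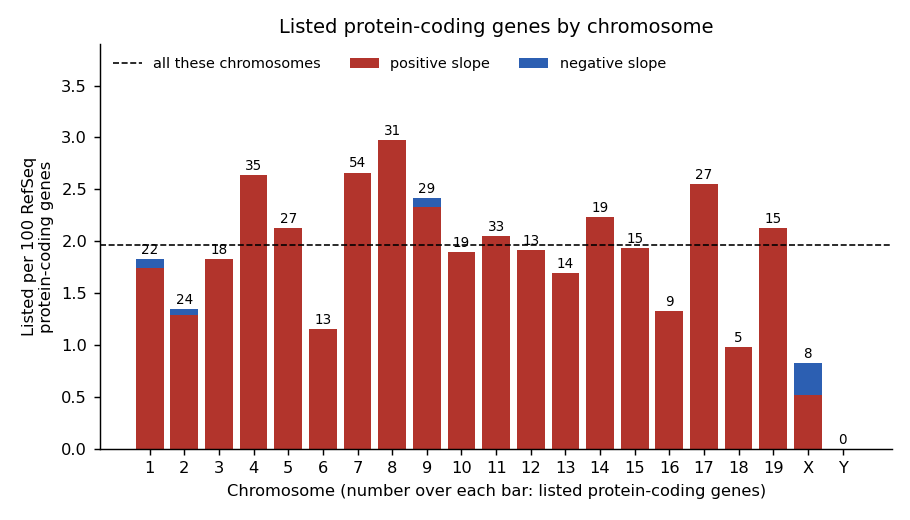
Listed protein-coding genes per 100 RefSeq protein-coding genes on each chromosome (bars from 0), split by the sign of the slope in the authors' deposited table, with the number listed over each bar and the dashed line for all these chromosomes. Chromosome 8 has 2.97, chromosome 4 has 2.64 and the X chromosome 0.828.

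Some listed genes were neighbours. Of the 553 placed genes, 93 lay within 100 kb of another, in 54 pairs, and both genes of a pair had slopes of the same sign in 52 of them. Since 538 of 566 slopes were positive, most pairs share a sign whatever their distance. The 2 pairs with opposite signs were Rhox4d with Rhox3f and Mir3101 with Adck4. Within 10 kb there were 12 pairs, and 6 pairs overlapped. Ccdc189 and the histone ubiquitin ligase Rnf40, which start 0.031 kb apart at their nearest ends on opposite strands, had 7.27 and 14.6 in the authors' deposited table. Ncbp1, a cap-binding protein, and the DNA repair gene Xpa, 2.82 kb apart, had 26.2 and 1.31 in the authors' deposited table. Fanci and the mitochondrial DNA polymerase Polg overlap on opposite strands and had 0.965 and 5.28 in the authors' deposited table. Where genes overlap, their rows may count the same reads.

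Protein-coding genes with positive slopes were compared with RefSeq for length and promoter sequence, which the list's rule did not use. Their median genomic span was 20.5 kb, against 17.1 kb for all RefSeq protein-coding genes. The span differed with the size of the slope. The order of slopes follows the unstated unit and each gene's expression level, so this difference is not read as a link between length and genotype. Among the 106 genes with the highest positive slopes the median span was 15.8 kb and 0.943% exceeded 100 kb. Among the 106 with the lowest positive slopes it was 23.2 kb and 20.8% exceeded 100 kb. A promoter was at hand for 346 of the 424 genes (81.6%) and for 17492 of 21900 RefSeq protein-coding genes (79.9%). Since the second share is under 80%, the comparison of promoters is void and the shares stand as a description of the promoters at hand. The GC box GGGCGG, read on both strands, was in 60.1% of the promoters of listed genes and in 46.3% of those of RefSeq protein-coding genes. The CCAAT box was in 40.8% and 39.2%, the cyclic AMP response element TGACGTCA in 3.76% and 2.33%, and the TATA box TATAAA in 7.23% and 13.3%. The core that DMRT factors bind, searched as ACANTGT, was in 3.76% and 6.39%. A match is a string of letters in these 300 bases and not a bound site.

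On chromosome 4 the deletion fell within bins chr4:107710001-107740000 on mm10, 30 kb in 3 bins of 10 kb. By their loss of contacts in homozygous libraries 2 of these were called deleted and the other partly deleted. The edges of the deletion cannot be placed more finely than these bins. The nearest listed genes were Slc1a7, a glutamate transporter gene at chr4:107968406-108013529, 228 kb to the right, and Tceanc2, a gene for a protein with a transcription elongation factor domain at chr4:107134162-107178366, 532 kb to the left. Slc1a7 had a slope of 0.290 in the authors' deposited table (95% interval 0.0995 to 0.481), and Tceanc2 had 1.37 (0.449 to 2.29). Both p-values lay close to the list's limit, 0.00878 and 0.00975 in the authors' deposited table. Within 10 Mb there were 5 more, all positive in the authors' deposited table. These were Dmrta2os (0.110), the adenylate kinase Ak4 (0.554), the kinase Mknk1 (2.52), the nuclease Toe1 (3.98) and the ubiquitin ligase Rnf220 (4.11). The highest slopes of the chromosome lay farther off, with Acot7 44438 kb and Rnf19b 21318 kb to the right.

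The capture Hi-C libraries, which were not used to make the list, were used to ask whether the flanks of the deletion met the listed genes more or less often without the boundary. The flanks were the 200 kb on each side of the deleted bins. For each listed gene on chromosome 4 its share of the flanks' contacts on that chromosome was compared over 3 Wild-type and 3 homozygous libraries, with 319651 to 583558 such contacts per library. Of every 10000 contacts Tceanc2 took 134, 139 and 141 where the boundary was present, and 145, 145 and 139 where both copies were deleted. The genotypes overlapped (138 ± 3.47 against 143 ± 3.34, SD, n = 3 each, exact permutation p = 0.3). Slc1a7 took 172, 191 and 188 of every 10000 in Wild-type and 176, 190 and 183 in homozygous libraries. These overlapped as well (184 ± 10.4 against 183 ± 6.99, SD, n = 3 each, exact permutation p = 0.9). The genotypes thus overlapped for both of the nearest listed genes. Homozygous shares are raised by contacts lost at the deleted bins, as described below. A lower share at these genes could be hidden by that, so no lack of change is read from this overlap.

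Of the 40 listed genes on chromosome 4, 35 had at least 10 contacts on average. In 6 of the 35 (17.1%) every homozygous library lay above every Wild-type library, in 0 below, and in 29 the genotypes overlapped. Over all 1741 genes of the chromosome measured in the same way, the genotypes did not overlap in 10.8%, 154 above and 34 below. The total behind each chromosome 4 share includes contacts with the deleted bins, which homozygous libraries lost. By construction this raises the homozygous shares of all other genes, by an amount that was not measured. The excess of genes above over below, and the ratios given here, are therefore not read as a gain of contacts. Among the 6 were Nfx1, Pou3f1, Zcchc17, Casp9 and Slc35e2, each farther than 10 Mb from the deletion. For Zcchc17, an RNA-binding protein gene, the share was 0.878, 1.04 and 0.953 of every 10000 in Wild-type and 1.31, 1.37 and 1.19 in homozygous libraries. For Pou3f1, a POU-domain transcription factor gene, it was 0.585, 0.489 and 0.501 against 0.751, 0.754 and 0.770. These Pou3f1 shares rest on few contacts, 20, 26 and 21 in Wild-type and 24, 44 and 33 in homozygous libraries. With 3 libraries against 3, the exact two-sided permutation test cannot give a p below 0.1, so no gene could pass 0.05. That 0.1 is also how often exchanged labels would separate a gene's libraries in either direction. The smallest p adjusted over the 1741 genes by Benjamini-Hochberg was 0.912. The median log2 ratio of homozygous over Wild-type was 0.18 over the 35 listed genes and 0.07 over all 1741.

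**Figure D4:**
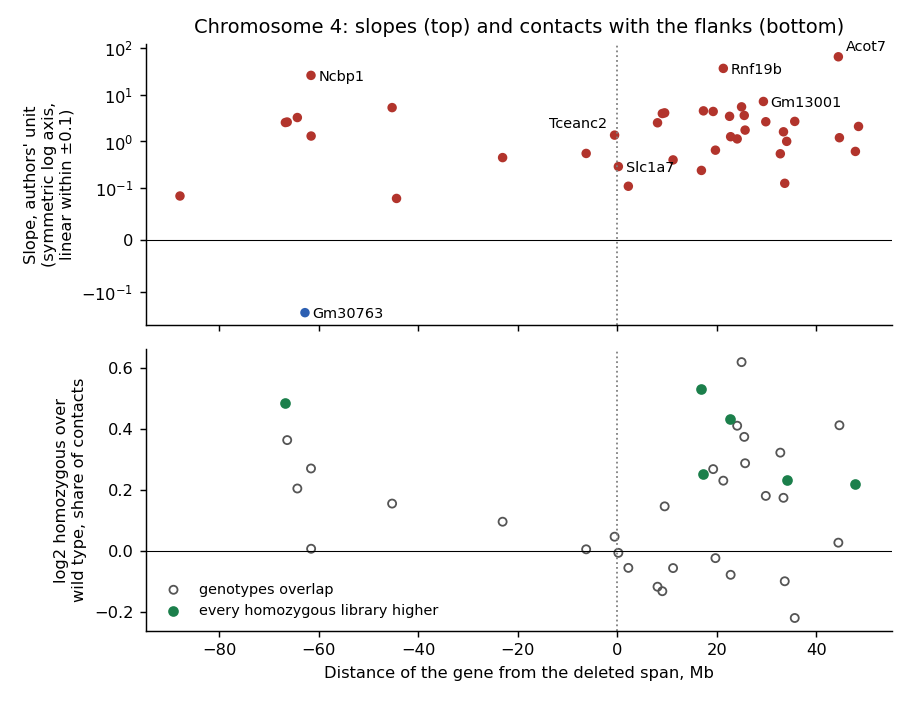
Listed genes of chromosome 4 by distance from the deleted span in Mb (horizontal, negative to the left), with the slope from the authors' deposited table above (symmetric log axis) and the log2 ratio of the flanks' contact share, homozygous over Wild-type, below. Of the 35 genes with enough contacts 6 are filled, where every homozygous library was higher, and the genes nearest to 0 lie close to a ratio of 0. All ratios carry an upward shift from the lost contacts of the deleted bins.

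For listed genes on other chromosomes, chromosome 2 left out because it was also captured, the share of the flanks' interchromosomal contacts that fell in their bins was 1.49, 1.66 and 1.50% for Wild-type testis. For homozygous testis it was 1.54, 1.71 and 1.60%. The means were 1.55 ± 0.0946% and 1.62 ± 0.0869% (SD, n = 3 each), a difference of 0.0674 percentage points that lay within the spread (exact permutation p = 0.5). These shares rest on 1471 to 2938 contacts per library. Replicate 2 was the highest library in both genotypes and also had the most contacts of the flanks in each. Divided by the share of the same bins in all interchromosomal contacts, the listed genes had 1.09 in Wild-type and 1.15 in homozygous libraries (exact permutation p = 0.2), and all RefSeq protein-coding genes had 1.10 in both.

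**Figure D5:**
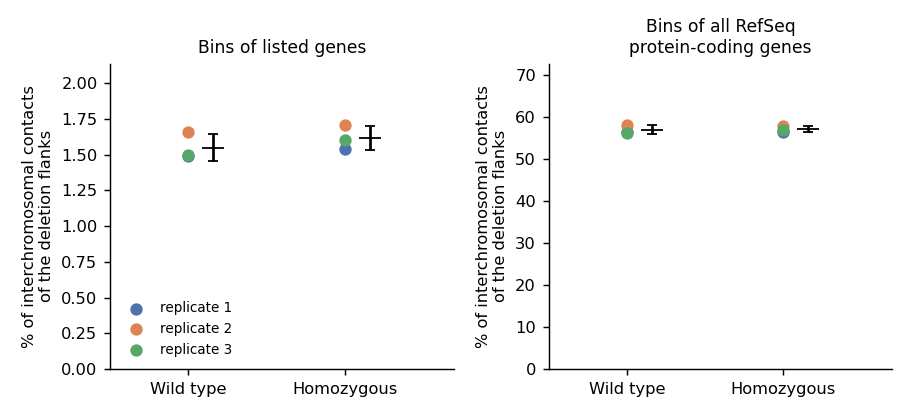
Percent of the flanks' interchromosomal contacts in bins of listed genes (left) and of all RefSeq protein-coding genes (right), 1 point per capture Hi-C library, coloured by replicate number, with the mean and SD (n = 3) in black on axes from 0. Wild-type libraries lie at 1.49 to 1.66% and homozygous ones at 1.54 to 1.71% for listed genes, and the ranges overlap.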

How the data were processed

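RNA-seq reads were aligned with STAR to mm10, per the submitters' processing notes. For these libraries the authors deposited summary tables of a Matrix eQTL regression, named so per the file names, with a t statistic as score, a p-value, an FDR and a slope per gene, the slope being likewise a score without a stated unit. The t values and p-values fit 7 degrees of freedom, which 9 libraries and a straight line leave; depth per RNA-seq library is not given in the sources used here. Standard errors (slope over t) and 95% intervals were computed from these columns. No value per RNA-seq library was used, so no gene was refitted.

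For capture Hi-C the authors deposited counts of contacts between bins of 10 kb, without normalization, 5669898 to 7794641 per library. A bin was called deleted where its share of contacts in every homozygous library was under 0.25 of that in every Wild-type library, and partly deleted under 0.75. Contact shares were compared by exact two-sided permutation over libraries, and the routine was tested on simulated counts. The simulated differences were larger than those of the listed genes and had no spread between libraries beyond counting noise. The simulation therefore does not show that differences of the size seen here would be found. A gene was measured with all its bins.

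Gene classes, coordinates and promoters came from RefSeq (GRCm38.p6, the same build as mm10). The genes named are the 12 highest and 12 lowest slopes, the 12 smallest p-values, listed members of the stage lists and of function lists (4 with the smallest p where over 12 were listed), microRNA genes, chromosome 4 genes within 10 Mb of the deletion and the extremes of standard error. Neighbouring pairs, protein-coding genes with negative slopes, transcribed pseudogenes, the gene at the limit and genes whose contacts did not overlap were added after their values were seen. Members and lists were chosen with earlier results of these data known. ChIP-seq was not analysed here. The values of 1 listed gene of chromosome 4 are not reported here. Alternatives are given in the closing section. Python 3.11.15, numpy 2.4.6, pandas 2.3.3, SciPy 1.17.1 and matplotlib 3.10.9 were used.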

Additional observations from a re-analysis of the deposited data

How the results depend on the processing

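No RNA-seq value per library was used, so no library could be left out of the regression and no block fitted to it. At an FDR of 0.1 in place of 0.05 the authors' deposited table called 1 gene, and by unadjusted p all 566. The share of positive slopes was 98.4% at a p of at most 0.001, 98.6% in protein-coding genes, 83.7% in predicted and Rik symbols and 99.7% at slopes of at least 1 in size. By symbol alone, 73.5% of genes had ordinary names, against 77.8% protein-coding by RefSeq. The rate of listed genes on chromosome 4 over that of all chromosomes was 1.24. It was 1.71 at a p of at most 0.001, which rests on few genes of that chromosome. Of the 5 genes from the round spermatid list, 2 had a p of at most 0.005, an alternative chosen after seeing the data. For contacts with listed genes elsewhere, the difference was 0.0210 to 0.122 percentage points with 1 library left out, and 0.0674 with the replicate block (p = 0.25 by exact sign flips, which can go no lower). For chromosome 4, 16 genes in place of 6 had all 3 same-numbered differences of one sign under the replicate block, 14 up and 2 down. These counts carry the upward shift from the lost contacts of the deleted bins. Same-numbered libraries correlated at 0.13, 0.37 and 0.08 in their deviations over 875 genes, so the numbers were not taken to pair them, and Wild-type replicate 1 correlated best with homozygous replicate 3. Leaving out 1 library gave 8 to 13 genes, with 11 without Wild-type replicate 2 and 13 without homozygous replicate 1 or 3; fewer libraries overlap less often by construction.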
